A study of Mus musculus with 12 samples.

Results

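Expression of 34 listed genes of smooth muscle contraction and its cytoskeleton was followed in 3 segments of the small intestine of mice, at a young and an old age and on a diet low or high in fat. The list holds genes of the myosin motor and its regulators, actin filament proteins, intermediate filaments, anchors of the dense plaques and dense bodies, channels and calcium stores, and 1 transcriptional coactivator. It was drawn up by gene function, but with earlier results of these data known. Each gene was read from its brightest probe set that carries only that gene's symbol. All 34 genes had such a probe set, among 19938 genes in all. Of these, 29 exceeded an intensity of 50 (5.64 on the log2 scale) on at least 1 array and were tested with 11917 genes in total.

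Male C57BL/6J mice of 4 months (young) and 21 months (old) received purified diets with 10% (low-fat) or 45% (high-fat) of the energy from fat for 2 weeks, after a run-in in which every mouse ate chow and then the low-fat diet. The small intestine was cut into a proximal, a middle and a distal segment, and the mucosa and submucosa were scraped off for RNA. Each of the 12 Affymetrix Mouse Gene 1.0 ST arrays held 1 pool of RNA, from 6 mice for a young diet group and 8 mice for an old one. The 12 arrays therefore stand for 4 pools of mice, the 3 segments of a pool come from the same animals, and the spread between single mice is not visible in these values.

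Smooth muscle shortens when calcium-calmodulin switches on myosin light chain kinase, which phosphorylates the regulatory light chain and lets the smooth muscle myosin heavy chain pull on actin. Thin filaments carry calponin, caldesmon and tropomyosin and are tied to dense bodies and membrane plaques, while desmin and synemin form an intermediate filament lattice between them. In the gut wall this tissue forms the outer muscle coat, the muscularis mucosae under the crypts, strands in the villus cores and the media of vessels. A scraping of mucosa and submucosa holds the last 3 of these and may hold a part of the coat.

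The scrapings carried strong epithelial signal. Epcam, an epithelial adhesion molecule, ranged from 11.76 to 12.14 (log2 intensity) over the 12 arrays, and Vil1, the microvillus protein villin, from 12.81 to 12.97. The 29 tested members had array medians between 6.20 and 7.90 on the log2 scale. Fewer muscle cells and less of these RNAs per cell cannot be told apart in such bulk samples. The pancreatic acinar genes, removed before testing, had list medians of 10.08 to 11.98 (log2) on the 4 proximal arrays and 5.07 to 5.74 on the other 8, so acinar signal was high in the proximal scrapings.

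Of the listed genes, 5 stayed under the intensity limit on every array and were not tested. These included Nexn, the actin-binding protein nexilin, Dmd, the membrane anchor dystrophin, and Casq2, a calcium buffer of the sarcoplasmic reticulum. With them were Cacna1c, the pore of the L-type calcium channel, and Myocd, the coactivator myocardin that drives many genes of this list. Nexn reached its highest value of 4.79 on the young low-fat distal array and was at 3.38 to 3.88 on the old arrays. Its 6 old minus young differences ran from -0.91 to 0.06, at levels where array signal is close to background.

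Most contractile and cytoskeletal genes were lower in the old than in the young intestine, by amounts that differed widely between genes. With segments averaged within each pool, 17 of the 29 tested members were lower in old mice and none was higher (limma, adjusted p under 0.05, 2 pools per age), where 2.17% of all tested genes were lower and 0.789% higher. The 17 include Kcnmb1, which exceeded the intensity limit on young distal arrays only. At an unadjusted p under 0.05, 21 members passed. The log2 difference was negative in 27 members, with a median of -0.41 over the 29 against 0.01 over all tested genes; with arrays centred on the epithelial list, the sign turned in Ldb3, Ppp1r12b and Tpm1, none of them called. This fit on 4 pools has 1 residual degree of freedom, which is the age by diet interaction, and borrows most of its spread from all genes. No age and diet group had a repeat pool, so its p-values do not measure the spread between like pools.

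In the group of myosin and its regulators, 2 of 5 genes passed. Myh11, the smooth muscle myosin heavy chain, gave 10.05 and 9.64 (log2 intensity) on the young distal arrays with low-fat and high-fat diet and 8.97 and 8.23 on the old ones. Its middle arrays read 8.45 and 8.37 in young and 7.58 and 7.68 in old mice, and its proximal arrays 7.84 and 7.21 in young and 6.55 and 6.62 in old mice. Both old arrays lay below both young arrays in each segment. Over pool means Myh11 fell by 0.99 on the log2 scale (SE 0.06, 1.99-fold, adjusted p = 0.00244, limma). Myl9, the regulatory light chain that carries the activating phosphate, had distal values of 9.60 and 8.94 in young and 8.47 and 7.51 in old mice. Its old arrays were again the lower ones in every segment, with a fall of 0.84 (SE 0.05, adjusted p = 0.00244, limma).

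The genes for enzymes that set the phosphorylation of this light chain did not pass. Mylk, the kinase, lay between 8.11 and 8.47 (log2 intensity) on all 12 arrays and differed by -0.12 (SE 0.06, adjusted p = 0.325, limma). Ppp1r12b, a targeting subunit of myosin phosphatase, differed by -0.04 (SE 0.05, adjusted p = 0.69, limma), and over its 7 probe sets the mean old minus young difference ran from -0.12 to 0.17. Ppp1r14a, the phosphatase inhibitor CPI-17, differed by -0.26 and narrowly missed the threshold (adjusted p = 0.0528, limma). The Mylk locus also encodes a non-muscle kinase, which a gene-level probe set does not separate.

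Among the actin filament genes 6 of 9 were lower. Acta2, smooth muscle alpha-actin, gave distal values of 10.93 and 10.42 (log2 intensity) in young and 10.16 and 9.19 in old mice, and proximal values of 9.04 and 8.51 in young and 7.81 and 7.81 in old mice. Old and young arrays did not overlap within any segment, and the fall over pool means was 0.93 (SE 0.05, adjusted p = 0.00241, limma). Cnn1, calponin, fell by 0.87, Tagln, the calponin relative transgelin, by 0.78, and Actg2, the enteric smooth muscle gamma-actin, by 0.69. In the proximal segment Actg2 overlapped between ages, with 6.24 and 5.94 in old and 6.64 and 6.10 in young mice.

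The remaining actin filament genes were less uniform. Cald1, caldesmon, fell by 0.57 and Tpm2, beta-tropomyosin, by 0.32, whereas Tpm1, alpha-tropomyosin, stayed between 9.64 and 9.87 (log2 intensity) over all arrays and differed by -0.04 (adjusted p = 0.736, limma). Smtn, smoothelin, differed by -0.11. Lmod1, leiomodin, which nucleates actin filaments, differed by 0.10 (SE 0.05, adjusted p = 0.345, limma). Lmod1 was the member with the highest old minus young value. It exceeded the intensity limit only on the old and young high-fat distal arrays (5.71 and 5.78, log2 intensity). Its proximal arrays read 4.90 to 5.42. Tpm1 and Cald1 are also expressed in many cells outside muscle.

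Both intermediate filament genes were lower, Des (desmin) by 0.66 and Synm (synemin) by 0.41. Among the anchor genes 6 of the 11 tested were lower. These were Pgm5, the dense plaque protein aciculin, by 0.72, Flna, the actin crosslinker filamin A, by 0.71, Synpo2, an actin-bundling synaptopodin relative, by 0.63, Csrp1, a LIM protein of actin bundles, by 0.58, Pdlim3, an alpha-actinin binder, by 0.44, and Tgfb1i1, the focal adhesion protein Hic-5, by 0.31. The other 5 did not pass. Fhl1, a LIM protein of muscle, differed by -0.30 (adjusted p = 0.0669), Pdlim7 by -0.18, Actn1 (alpha-actinin) by -0.11, Ldb3, a Z-disc protein, by -0.01 and Vcl (vinculin) by 0.06 (limma). Vcl read 8.69 and 8.68 (log2 intensity) on the old and 8.68 and 8.73 on the young proximal arrays, so the ages overlapped.

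Of the channel and store genes, Kcnmb1, the beta subunit of the large-conductance potassium channel, fell by 0.42 (adjusted p = 0.0187, limma). It exceeded the intensity limit only on the young distal arrays (5.98 and 5.71, log2 intensity), and its old arrays read 4.72 to 5.22. Its calls with age are therefore not independent of that filter. Jph2, which holds the store membrane to the cell surface, differed by -0.23 (adjusted p = 0.0781, limma). Its second probe set gave a mean difference of -0.10. Members taken as largely restricted to muscle, with Mylk counted among them, were called in 13 of 21 cases, with a median difference of -0.42. The 8 members taken as broadly expressed were Flna, Actn1, Vcl, Tpm1, Cald1, Csrp1, Pdlim7 and Tgfb1i1. They were called in 4 cases, with a median of -0.25.

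**Figure D1:**
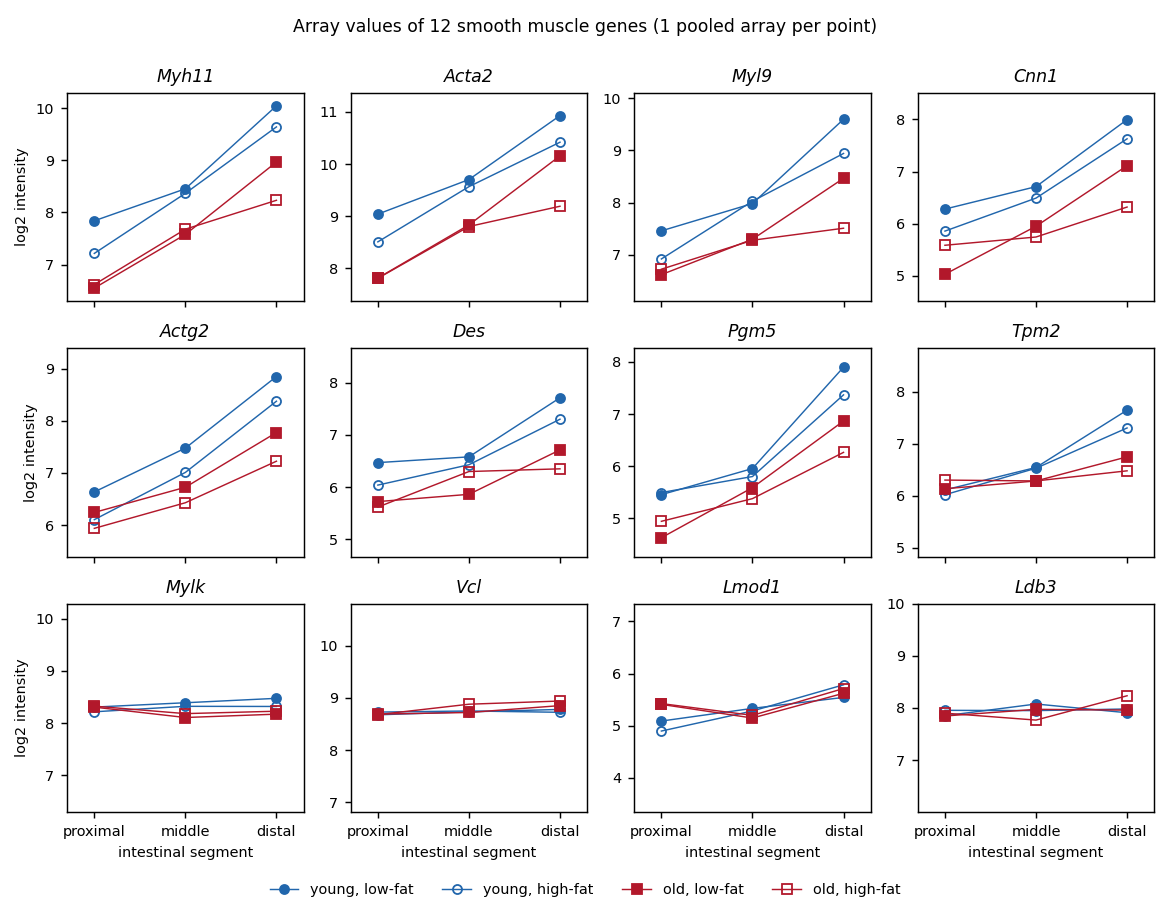
Log2 intensity (y axis, each panel spanning 4 units) of 12 members in the 3 segments (x axis), with 1 array per point and lines joining the segments of 1 pool (blue circles, young; red squares, old; filled, low-fat; open, high-fat). Old arrays lie below young ones in every segment for Myh11, Acta2, Myl9, Cnn1, Des and Pgm5, whereas Mylk, Vcl and Ldb3 are nearly flat.

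Short stretches upstream of 3 of these genes show the CArG box, the site bound by serum response factor, the partner of myocardin. Acta2, Myl9, Cnn1 and Des, which fell, and Vcl, which did not, were looked at for this purpose. Cnn1 and Des held no box, exact or with 1 inner G or C, so only the other 3 are shown. Capitals mark the box, letters read 5′ to 3′ on the gene's strand, and sequence and coordinates are from RefSeq (GRCm38.p6).
Myl9, chr2:156775283-156775394, plus strand: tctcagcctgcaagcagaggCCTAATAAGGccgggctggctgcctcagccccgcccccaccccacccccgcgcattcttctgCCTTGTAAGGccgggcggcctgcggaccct
Vcl, chr14:20929151-20929200, plus strand: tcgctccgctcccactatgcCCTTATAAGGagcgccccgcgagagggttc
Acta2, upstream box, chr19:34255438-34255467, minus strand: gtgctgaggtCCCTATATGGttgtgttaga
Acta2, downstream box, chr19:34255388-34255417, minus strand: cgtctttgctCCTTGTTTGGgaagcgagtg
The first Myl9 box and the Vcl box match the CArG motif exactly, while the second Myl9 box and both Acta2 boxes carry 1 G or C among the 6 inner letters. The Acta2 stretches lie within the extent that RefSeq gives this gene, and the others outside theirs.

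A window of 250 bases before to 50 bases after the transcript start was at hand for 28 of the 34 members, Myh11, Actg2, Tagln, Nexn, Tgfb1i1 and Myocd being those without one. The motif was searched by its exact consensus, which reads the same on both strands. An exact box lay in the window of 5 of these 28 members (17.9%), which were Myl9, Vcl, Ldb3, Fhl1 and Dmd, against 1.81% of 27025 genes with a window. When 1 inner G or C was allowed, 10 members (35.7%) and 11.3% of all genes held a box, since the looser form includes the exact one; the members added were Acta2, Synm, Pdlim3, Jph2 and Cacna1c. By call, an exact box was found in 1 of 13 members that were lower with age and in 3 of 12 that were not called, and the looser form in 4 of 13 and 4 of 12. A match is a run of letters and no measurement of binding, and a window without one says only that these letters are not in it.

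The members did not fall by a common amount. The list was also read pair by pair, comparing the old and the young array of the same segment and diet, which gives 6 pairs from 4 pools. In all 6 pairs 17 members were lower in old mice, against 4.37% of all tested genes, and 6 further members in 5 of 6 pairs, against 9.91%. In 14 members the higher old array lay below the lower young array in every segment, as in 1.56% of all tested genes. These 14 comprised Jph2, which was not called over pool means, and 13 of the 17 called genes. Among the called genes Actg2, Cald1, Synm and Tpm2 overlapped between ages in at least 1 segment.

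The median of the 29 differences was negative in each pair. In the proximal segment it was -0.39 with the low-fat and -0.20 with the high-fat diet, and in the middle segment -0.31 and -0.25. It was lowest in the distal segment, at -0.74 with the low-fat and -0.63 with the high-fat diet. The standard deviation over the members was 0.26 to 0.54 in the 6 pairs. In the proximal low-fat pair the genes ran from -1.29 (Myh11) to 0.32 (Lmod1, under the intensity limit on both arrays).

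Of the 29 members 12 stayed on the same side of the median in all 6 pairs. Myh11, Acta2, Cnn1, Tagln, Pgm5 and Flna lay below the members' median in all 6 pairs, with mean departures from -0.57 (Myh11) to -0.29 (Flna) on the log2 scale. Mylk, Smtn, Tpm1, Ldb3, Vcl and Lmod1 lay above it in all 6 pairs, with mean departures from 0.30 (Mylk) to 0.52 (Lmod1). Lmod1 exceeded the intensity limit only on the high-fat distal arrays. The other 17 members fell on either side or on the median itself. The pairs share pools, so these counts describe the 12 arrays and were not tested.

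**Figure D2:**
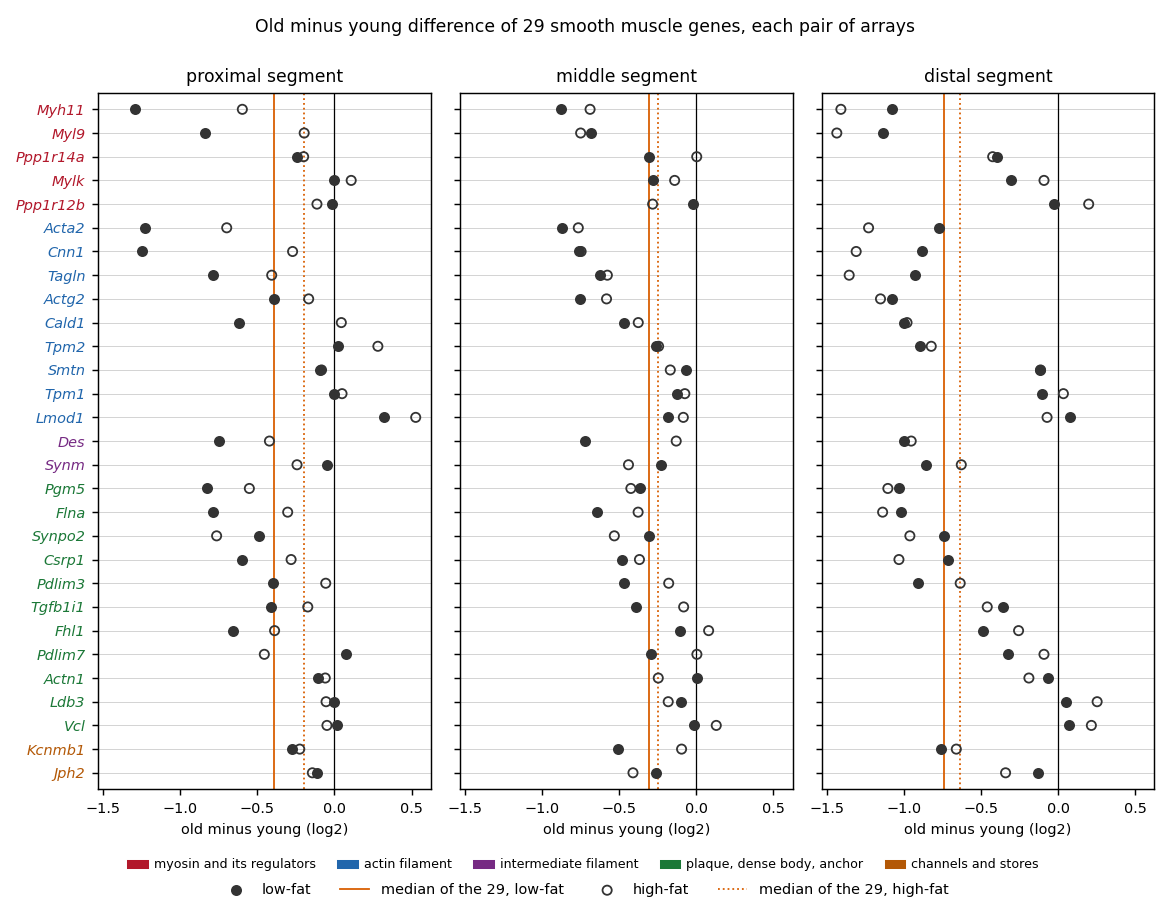
Old minus young difference (x axis, log2) of each tested member (rows, label colour giving the role) in the 3 segments, with low-fat pairs filled, high-fat pairs open, and vertical lines at the median of the 29 members. Myh11, Acta2 and Cnn1 lie left of the median in all 6 pairs and Vcl, Ldb3 and Lmod1 right of it.

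Within single segments, the distal one held the calls. There 15 members were lower in old mice and none higher (limma, adjusted p under 0.05), where 0.478% of all tested genes were lower and 0.201% higher, and 20 members had an unadjusted p under 0.05. The called differences ran from -0.71 on the log2 scale for Kcnmb1 to -1.28 for Myl9, with Tagln at -1.14 (SE 0.13, adjusted p = 0.0226), Actg2 at -1.11 (SE 0.09, adjusted p = 0.00767) and Pgm5 at -1.07 (SE 0.09, adjusted p = 0.00767). Cnn1 differed by -1.10 but had the widest error (SE 0.21, adjusted p = 0.0843, limma). These distal differences rest on 4 arrays, and Kcnmb1 exceeded the intensity limit only on the young ones. The fit took in the arrays of all segments and had 3 residual degrees of freedom, the age by diet departures within segments. The segments share the same pools of mice, and no age and diet group had a repeat pool. The p-values for age and diet within segments therefore do not measure the spread between like pools. The same holds for comparisons of age differences between segments. Without either distal high-fat array no member was called, without either distal low-fat array 4 were, and without any 1 of the middle arrays 5 were.

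In the proximal and the middle segment limma called no member, while 16 and 19 members had an unadjusted p under 0.05; 0.0839% and 0.00839% of all tested genes were called lower there and 0.0252% and 0.0168% higher. Pgm5 came nearest in the proximal segment (-0.69, adjusted p = 0.0531, limma) and Actg2 in the middle segment (-0.67, adjusted p = 0.128, limma). The proximal arrays of Pgm5 read 4.63 to 5.49 (log2 intensity), all under the intensity limit. The age differences of 2 segments were also compared directly, and no member passed in the 3 comparisons (0% of all genes in either direction for distal minus proximal and for distal minus middle; 0.00839% lower and 0.0168% higher for middle minus proximal). Unadjusted p-values under 0.05 were found for 12, 15 and 5 members in that order. No single member was thus shown to differ in its age effect between segments.

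Tpm2 came nearest to such a difference. Its old arrays read 6.14 and 6.30 (log2 intensity) in the proximal segment, where the young ones read 6.11 and 6.02, and 6.75 and 6.48 in the distal segment, where the young ones read 7.65 and 7.30. The old arrays lay above the young ones proximally and below them distally. The age difference was lower by -1.01 in the distal than in the proximal segment (SE 0.12, adjusted p = 0.0870, limma). For Actg2 the same contrast was -0.83 (adjusted p = 0.165, limma).

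Counted by a 2-fold difference between single arrays, the distal segment again held the most members. In the distal high-fat pair 9 members were over 2-fold lower, against 0.52% of all tested genes, and in the distal low-fat pair 6 members, against 0.151%. The proximal low-fat pair had 3 members, Myh11, Acta2 and Cnn1, against 0.185%. The proximal high-fat pair and both middle pairs had none, with 0.126%, 0.0503% and 0.117% of all genes. No member was over 2-fold higher in any pair, as 0.193% of genes were in at least 1.

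Genes of the wider smooth muscle pathway moved less as a list. Among 63 further genes for receptors, calcium handling, caveolae and transcription factors, 49 were tested, 13 were lower, none was higher and the median difference over pool means was -0.11 on the log2 scale. Chrm2, a muscarinic acetylcholine receptor, fell by 0.71 (adjusted p = 0.00658), Pln, phospholamban of the calcium pump, by 0.60 (adjusted p = 0.00378), Cavin2 of the caveolar coat by 0.52 and Fermt2, an integrin activator, by 0.47 (limma).

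Lists of other cell types moved alongside. Of 18 tested fibroblast and matrix genes 15 were lower and none higher, with a median of -0.42, next to -0.41 for the smooth muscle members. Sparcl1 fell by 0.74, Bmp5 by 0.63, the receptor Pdgfra by 0.54 and Sparc by 0.53. The list median was 6.84 to 7.40 (log2 intensity) on the old and 7.22 to 7.88 on the young arrays, and the defining fibroblast gene Lum stayed under the limit throughout. In the endothelial list 5 of 11 genes were lower, with a median of -0.19 and list levels of 5.40 to 5.92 on old and 5.75 to 6.21 on young arrays. Of 6 pericyte genes 2 were lower, Rgs5 by 0.82 and Abcc9 by 0.37. The part of these cells in the smooth muscle result was not tested.

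None of the 15 epithelial genes passed, with a median of -0.03 and list levels of 11.65 to 12.00 on old and 11.82 to 12.09 on young arrays. No gene passed among 5 tested enteric neuron and glia genes, 3 of interstitial cells of Cajal, 3 of mesothelium and 8 of striated muscle. The neuronal genes Uchl1 and Elavl4 and the striated myosins Myh1 and Myh6 stayed under the limit. Acta1, the skeletal actin, was above it at 6.79 to 7.96 (log2 intensity), and its coding sequence is closely related to those of Acta2 and Actg2. In the adipocyte list 2 of 5 genes were lower, with a median of -0.25, and in the leukocyte list 2 of 11, with a median of -0.24 and 10 of 11 differences negative; their part in the smooth muscle result was not tested either.

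**Figure D3:**
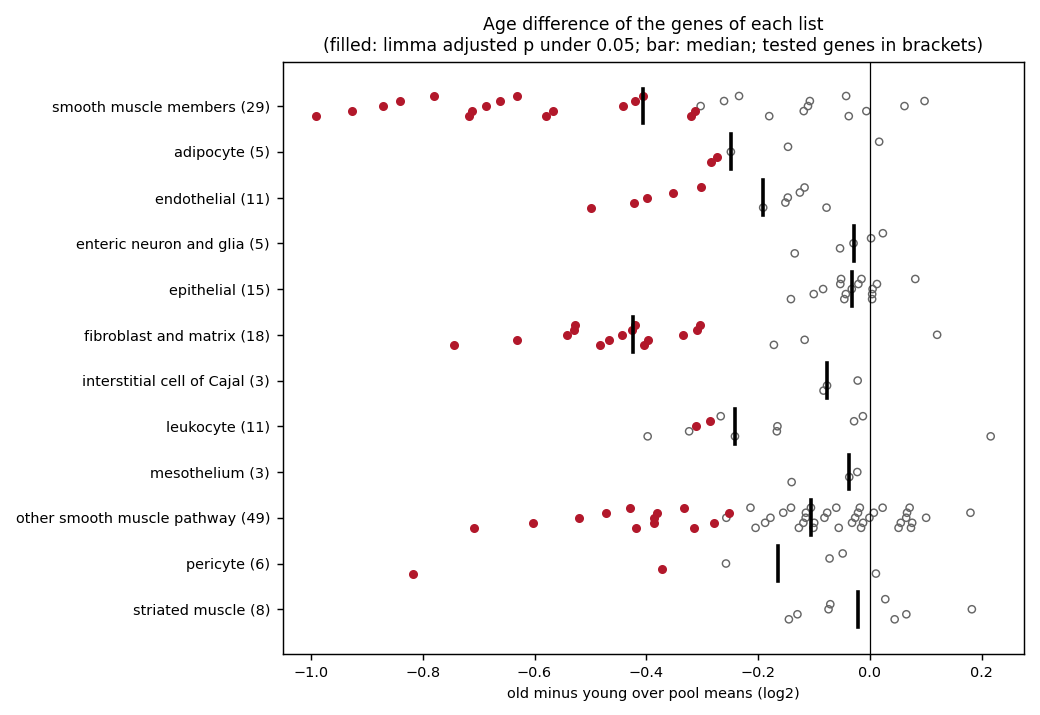
Old minus young difference over pool means (x axis, log2) of every tested gene in the smooth muscle list and 11 comparison lists (rows, number tested in brackets), with genes below a limma adjusted p of 0.05 filled and list medians as bars. Smooth muscle and fibroblast lists have medians of -0.41 and -0.42, and the epithelial list lies around 0.

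The same genes rose along the intestine. From the middle to the distal segment 24 of 29 members were higher and none lower (limma with pool as a block, adjusted p under 0.05), where 14.7% of all tested genes were higher and 20% lower. From the proximal to the distal segment the count was also 24 and none lower, against 27.3% of genes higher and 27.5% lower. From the proximal to the middle segment 7 members were higher and none lower, against 14.1% and 10.9% of genes. The median differences over the members were 0.63, 0.70 and 0.16 on the log2 scale. Kcnmb1 and Lmod1 exceeded the intensity limit on distal arrays only. Other lists also rose from middle to distal. Higher there were 8 of 15 epithelial, 5 of 6 pericyte, 4 of 5 adipocyte and 3 of 5 neuron and glia genes. All 3 genes of interstitial cells of Cajal were higher too. Their list median was 5.15 to 5.58 (log2 intensity) on proximal and middle arrays, where Kit alone exceeded the intensity limit. Ano1 and Etv1 exceeded it on distal arrays only, so their calls are not independent of that filter. So were 6 of 18 fibroblast genes and 1 of 11 leukocyte genes, but no endothelial gene. Lower were 4 leukocyte genes and 1 gene each of the epithelial, adipocyte, fibroblast and endothelial lists. In the wider smooth muscle pathway list 20 of 49 genes were higher and 3 lower from middle to distal. There 2 of 3 mesothelium and 3 of 8 striated muscle genes were higher and none lower.

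The rise was steepest for Myh11, at 2.17 from proximal to distal (SE 0.15, 4.49-fold, adjusted p = 1.09e-06, limma). Pgm5 rose by 1.97, Acta2 by 1.88, Actg2 by 1.83 and Myl9 by 1.70. Pgm5 had the highest difference of the members from middle to distal, at 1.42 (SE 0.17, adjusted p = 0.000142, limma). In the young low-fat pool Pgm5 read 5.45, 5.95 and 7.90 (log2 intensity) from proximal to distal, and in the old high-fat pool 4.94, 5.38 and 6.26.

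The 5 members that were not called from proximal to distal were Mylk (0.01), Tpm1 (0.09), Ppp1r12b (0.10), Vcl (0.13) and Ldb3 (0.13). These 5 were not called with age either. When arrays were instead centred on the epithelial list, their differences turned negative, from -0.07 for Ldb3 and Vcl to -0.20 for Mylk, and 17 members were called higher and none lower. This centring took the median of all genes for distal minus proximal from 0.02 to -0.19. It gave 1342 genes higher and 5402 lower in place of 3255 and 3272. From proximal to middle it gave 3 members higher and 1 lower, with 4.33% of all genes higher and 25.5% lower. Fhl1 and Actn1, not called with age, did rise from proximal to distal, by 1.13 and 0.65.

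The gradient was present in each pool. The median distal minus proximal difference of the members was 1.08 in young low-fat, 0.95 in young high-fat, 0.61 in old low-fat and 0.44 in old high-fat mice. In the old high-fat pool 5 members were over 2-fold higher in the distal than in the proximal segment, against 2.25% of all genes, and in the young low-fat pool 15 members, against 2.71%. The acinar signal given above was high on the 4 proximal arrays, and its part in contrasts with that segment was not tested; the middle to distal step does not use those arrays.

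**Figure D4:**
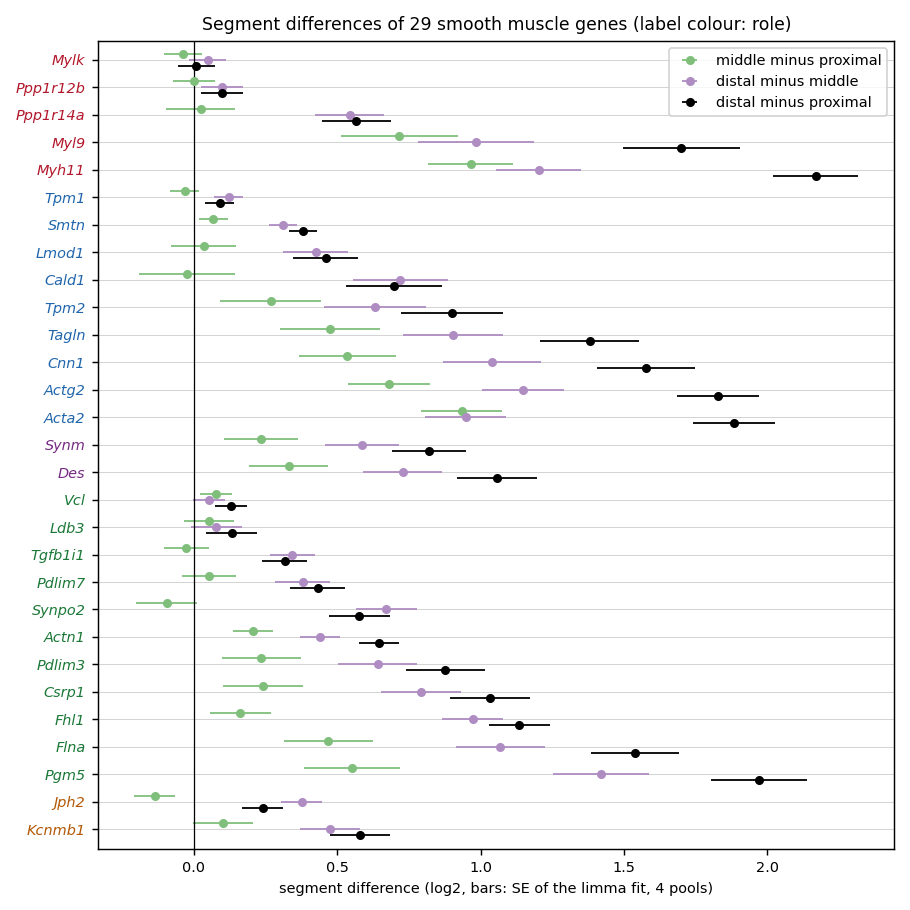
Segment differences (x axis, log2) of each tested member (rows, label colour giving the role) between middle and proximal (green), distal and middle (violet) and distal and proximal (black), with bars for the SE of the limma fit over 4 pools. Myh11, Pgm5, Acta2 and Actg2 rise by 1.83 to 2.17 from proximal to distal, while Mylk and Tpm1 stay near 0.

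Fewer of these genes passed for diet than for age, and the 2 counts were not tested against each other. Over pool means 4 members were lower with the high-fat diet and none higher (limma, adjusted p under 0.05), where 3.23% of all tested genes were lower and 2.58% higher, and 11 members had an unadjusted p under 0.05. Actg2 fell by 0.44 (SE 0.05, adjusted p = 0.0076), Acta2 by 0.36 (adjusted p = 0.0117), Myl9 by 0.34 (adjusted p = 0.016) and Myh11 by 0.28 (adjusted p = 0.0437, limma). The median over the members was -0.11. Actg2 and Acta2 were lower with the high-fat diet in all 6 pairs of arrays, and Myl9 and Myh11 in 4 of 6.

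Actg2 was the steadiest of these genes. From proximal to distal its high-fat minus low-fat differences were -0.53, -0.47 and -0.47 in young mice and -0.31, -0.30 and -0.55 in old mice. Acta2 in contrast differed by -0.97 in the old distal pair and by -0.00445 in the old proximal pair.

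The diet count depended on the segment and the settings. In the distal segment alone Pgm5 was lower (-0.57, SE 0.09, adjusted p = 0.0471, limma), where 0.168% of all tested genes were lower and 0.361% higher, and 16 members had an unadjusted p under 0.05. No member was called in the proximal or the middle segment, where 0.0839% and 1.24% of genes were lower, 0.235% and 1.31% were higher, and 2 and 2 members had an unadjusted p under 0.05. With the epithelial centring 5 of 29 members (17.2%) were called higher in the middle segment, below the 23.7% of all genes called higher there, and that centring moved the median of all genes by 0.23. No member differed over 2-fold in any of the 6 diet pairs, as 1.43% of genes did in at least 1. Over pool means 1 member was lower without the distal segment and 7 without the proximal segment.

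The age difference did not change detectably with diet. In the age by diet test no member and no gene of the 11917 passed (limma; 0% of all genes), and 4 members had an unadjusted p under 0.05. Its repeats are the 3 segments of the same pools, so it does not cover the spread between pools.

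**Figure D5:**
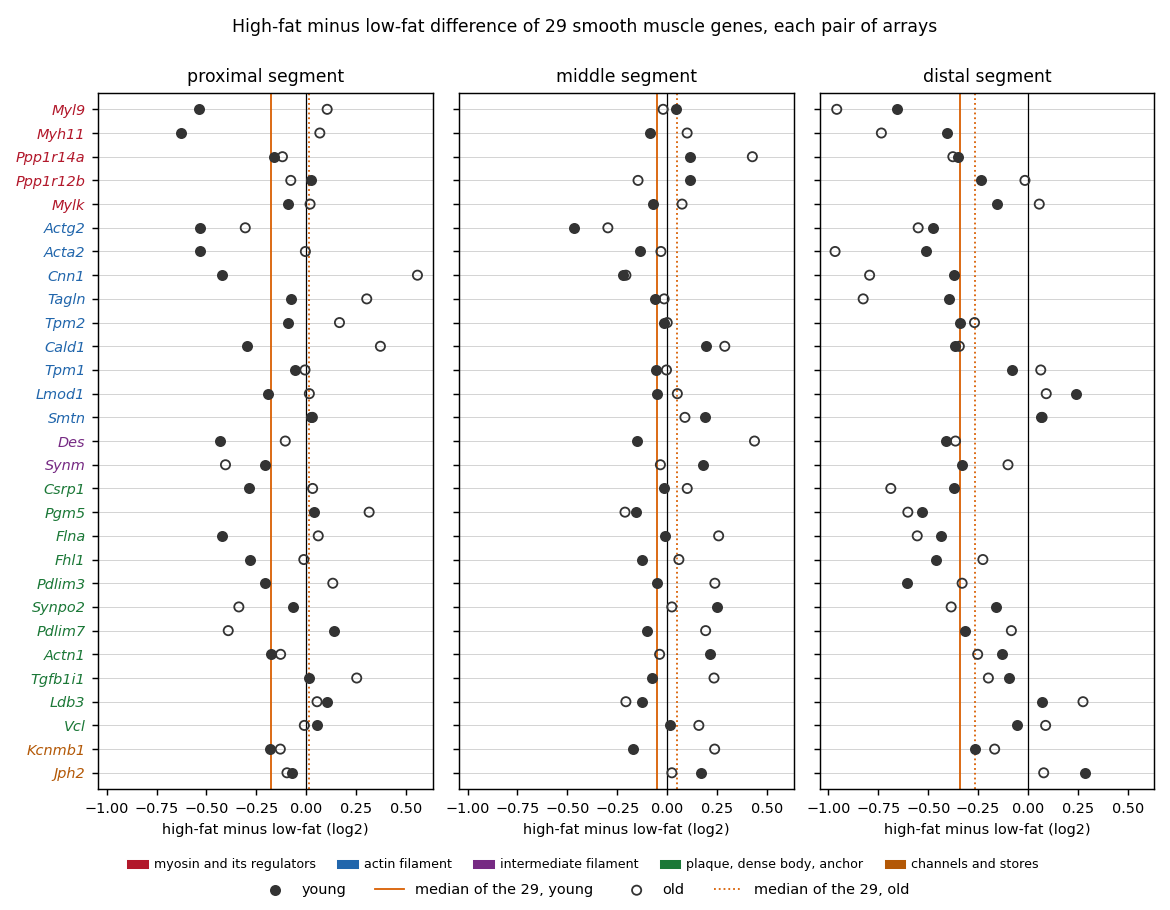
High-fat minus low-fat difference (x axis, log2) of each tested member (rows, label colour giving the role) in the 3 segments, with young pairs filled, old pairs open, and vertical lines at the median of the 29 members. Actg2 lies left of 0 in all 6 pairs, and the distal medians are -0.34 in young and -0.27 in old mice.

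Over the 12 arrays the members that changed with age and segment followed Myh11 closely, as a description over arrays that share 4 pools and 3 segments. Pearson's r with Myh11 was 0.993 for Acta2, 0.985 for Flna, 0.984 for Myl9, 0.979 for Cnn1 and 0.975 for Tagln. At the other end were Mylk (0.377), Vcl (0.319) and Ldb3 (0.264), whose values hardly varied. Among the 20 tested genes most like Myh11, 9 were members, and the nearest others were Nrp2 (0.980), Gtse1 (0.976) and Grem1 (0.976), named after their values were seen. The untested Dmd (0.945) and Casq2 (0.914) also ran with Myh11 below the intensity limit. The other untested members were less alike, with Nexn at 0.814, Cacna1c at 0.693 and Myocd at 0.450.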

How the data were processed

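RNA was pooled per segment, age and diet group and hybridised to 12 arrays in a single experiment. The authors normalised the arrays together by Robust Multi-array Average, and the deposited values are log2 intensities for 35556 probe sets (array medians 5.57 to 5.70). The version was not stated in the submitters' processing notes.

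Here 21789 probe sets carried 1 gene symbol, 1621 several and 12146 none. Per gene the brightest probe set of 1 symbol was kept, 31 pancreatic acinar genes were removed, and genes over an intensity of 50 on at least 1 array were tested. Symbols were matched with the platform annotation and RefSeq. limma 3.58.1 in R 4.3.3 was fitted across all 11917 genes with Benjamini-Hochberg adjustment (threshold 0.05): on pool means with age and diet, on all arrays with age and diet within each segment, and on segments with pool as a block. The study's own criterion, a 2-fold difference between single arrays, was also counted. Correlations, windows and figures were made in Python 3.11.15. The tests were checked on simulated data for 11917 genes, where the age fit over pool means found 76% of genes changed by 0.5 (log2), 95% by 1 and 100% by 2, with 5 false calls. The age fits within the proximal, middle and distal segment found 56%, 58% and 46% of genes changed by 0.5 and 88%, 85% and 86% of genes changed by 1, with 6, 9 and 4 false calls. The simulated noise was independent on each of the 12 arrays, with no part shared within a pool. These rates therefore do not cover the spread between pools of mice. The small number of arrays and pools limits the precision.

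The members, the comparison lists and the tests were chosen with earlier results of these data known. All 34 members are named; from each comparison list at most the 4 genes with the largest age difference and defining markers under the limit are named. Epcam, Vil1 and Acta1, defining markers above the limit, fall outside this rule and were named after their values were seen. Protein sequences were not used here.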

Additional observations from a re-analysis of the deposited data

Results flagged for a closer look

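In 3 members both diet pairs of 1 segment moved one way with age and both pairs of another segment the opposite way; by the direct limma test none of these differences passed after adjustment. Lmod1 was higher in old mice in the proximal pairs (0.32 and 0.53) and lower in the middle pairs (-0.19 and -0.08). Its middle minus proximal difference was -0.56 (adjusted p = 0.837, limma). The proximal and middle arrays of Lmod1 read 4.90 to 5.42 (log2 intensity), all under the intensity limit. Tpm2 was higher in the proximal pairs (0.02 and 0.28) and lower in the others, with differences of -1.01 for distal minus proximal (adjusted p = 0.0870, limma) and -0.40 for middle minus proximal (adjusted p = 0.837, limma). Ldb3 was higher in the distal pairs (0.05 and 0.25) and lower elsewhere, with differences of 0.18 for distal minus proximal (adjusted p = 0.630, limma) and 0.29 for distal minus middle (adjusted p = 0.415, limma).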

How the results depend on the processing

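Of 17 members lower with age over pool means, 8 (Acta2, Actg2, Cnn1, Myh11, Myl9, Pgm5, Synpo2 and Tagln) were lower in each of 11 alternatives. The count was 8 without the distal segment and 12 to 19 in the other alternatives. Within the distal segment it was 9 with no intensity filter and 14 to 16 in the other alternatives on all 12 arrays or on the distal arrays alone, and 0 to 15 when 1 array was left out; in each of the other segments leaving out 1 array gave 0. Proximal calls were 1 with an intensity over 100 and 1 with median centring. They were 4 with epithelial centring and 6 with an intensity trend and robust variance. Genes lower there were, in that order, 10 of 9110 and 8, 56 and 62 of 11917. Middle calls were 1, 1 and 4 with epithelial centring, trend and the segment's arrays alone. There 14, 15 and 10 of 11917 genes were lower. Distal minus proximal age differences were called for 1, 2 and 2 members with an intensity over 100, epithelial centring and trend. Genes lower in these fits were 2 of 9110 and 18 and 13 of 11917. Over pool means 65 of 11917 genes were lower with age without the distal segment, and 70 to 391 genes in the other alternatives. Within the distal segment 23 of 19907 genes were lower with no filter. The other alternatives on all 12 arrays or on the distal arrays alone gave 43 to 190 genes.

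Diet calls over pool means were 2 with no filter, 7 with an intensity over 100 and 7 with trend. They were 7 without the proximal and 1 without the distal segment. Genes lower in these fits were, in that order, 76 of 19907, 503 of 9110, and 875, 369 and 237 of 11917. Diet calls in the middle segment were 1 lower with an intensity over 100, 5 higher with epithelial centring and 1 lower with trend. All genes called in the same direction were 260 of 9110, 2828 of 11917 and 469 of 11917. In the distal segment diet calls were 0 with no filter, 2 over 100 and 0 with pancreas genes kept. They were 4 with epithelial centring and 7 with trend. Genes lower there were, in that order, 11 of 19907, 41 of 9110, 18 of 11948, and 72 and 195 of 11917. With quantile normalization 1 member was over 2-fold in a diet pair, an alternative chosen after seeing the data. From proximal to middle, 3 members were higher with epithelial centring and 0 with no pool block, where 516 and 1441 of 11917 genes were higher. Leaving out 1 pool gave 3 to 8 members there, with 852 to 1668 genes higher. It gave 19 to 24 members for distal minus middle, with 966 to 1810 genes higher. For distal minus proximal it gave 23 to 24 members, with 2585 to 3235 genes higher. At 1.5-fold the age pairs held 11 and 3 members (proximal low-fat and high-fat), 8 and 4 (middle) and 16 and 16 (distal).

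Signs turned only in members without a call. Over pool means Ldb3 was 0.0715 with epithelial centring, 0.00516 without the proximal and 0.0614 without the middle segment; Lmod1 was -0.0651 without the proximal segment; Ppp1r12b was 0.0352 with the mean of its probe sets, 0.0354 with epithelial centring and 0.0121 without the middle segment; Tpm1 was 0.0401 with epithelial centring. In the distal segment, leaving out 1 array gave Lmod1 -0.0712 to 0.0795, Ppp1r12b -0.0234 to 0.199 and Tpm1 -0.107 to 0.0348. Distal minus proximal, epithelial centring gave -0.0724 for Ldb3, -0.195 for Mylk, -0.105 for Ppp1r12b, -0.114 for Tpm1 and -0.0741 for Vcl, and leaving out 1 pool gave Mylk -0.0431 to 0.0577. The causes were not tested.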
